A study of Mus musculus with 22 samples.

Results

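The comparison described here is that of adult with young mice in the RNA pulled down from outer hair cells, the motile sensory cells of the cochlea. Its members are the 9 pulldown libraries labelled with an adult or a young age, taken by the age in their labels, out of 11 pulldown libraries and 22 libraries in all. The 5 adult libraries are 2 from mice of 6 weeks (6wk) and 3 from mice of 10 weeks (10wk). The 4 young libraries are 2 from postnatal day 8 (P8) and 2 from postnatal day 14 (P14). The other 2 pulldown libraries, labelled P28, lie between both ages, entered no test and are given as values. All mice, adult and young, were PrestinCreERT2/+;RiboTagHA/+ and received tamoxifen. They carried 1 copy of a tamoxifen-inducible Cre recombinase at the prestin locus and 1 copy of an allele of Rpl22, a protein of the large ribosomal subunit, that gains a haemagglutinin (HA) tag after Cre acts. The dose was 9 mg per 40 g body weight in mice of 21 days or older and 3 mg per 40 g in younger mice. The age at injection of each adult group is not given in the sources used here, so that dose may differ with age, and any effect of it cannot be told apart from that of age. Tagged ribosomes with their RNA (IP) were pulled from cochlear lysate with an HA antibody, and the same number of libraries from whole cochlear RNA (input) of each age was used beside them. The number of animals behind a library is not given in the sources used here; the design text calls the libraries biological replicates, and p-values measure the spread between these libraries.

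Outer hair cells change shape with voltage through prestin, the product of Slc26a5, and their bundles of stereocilia touch the tectorial membrane, an acellular sheet of collagens and tectorins laid down by neighbouring supporting cells. In mice both the sensory cells and the surrounding otic capsule, which ossifies from cartilage, mature over the first weeks after birth, and hearing begins within them. Tagged-ribosome pulldown enriches the RNA that is being translated in the cells that express Cre, but it also carries over some RNA of the whole tissue, so that RNA of neighbouring cells can be present in every pulldown.

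The RNAs that differed most included H19, an imprinted noncoding RNA of fetal tissues whose transcript is also the precursor of the microRNA miR-675, and a small group of interferon-induced genes. Both mature arms of miR-675 lie in H19 on the minus strand of chromosome 7 (GRCm38.p6, RefSeq) and are printed 5′ to 3′ with the seed, bases 2 to 8, in capitals. They are shown because they are the known small-RNA product of the H19 transcript. The row of Mir675 itself was at 0 reads in all 9 libraries. The 3p arm is at chr7:142577078-142577099 and the 5p arm at chr7:142577112-142577133.
mmu-miR-675-3p: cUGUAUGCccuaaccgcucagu
mmu-miR-675-5p: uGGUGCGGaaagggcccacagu

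For the interferon-induced genes, the 200 bases before the annotated start (RefSeq, GRCm38.p6) are printed for the 3 called members with a sequence, each 5′ to 3′ on the strand of its gene. Matches to GAAANNGAAA on either strand are in capitals, with overlapping matches joined. These letters are the core of the element that interferon-activated transcription factors recognise. Of the 6 list members with a promoter sequence, 5 held a match within 250 bases before the start, as did all 3 of the called members, against 978 of 32851 promoters (2.98%) of the same length in the reference. The list was made of interferon-induced genes, so its share of matches was favoured by the choice of list and says nothing about these libraries. A match describes the letters only. The Ifit3 stretch is chr19:34583329-34583528 on the plus strand, that of Isg15 is chr4:156200819-156201018 on the minus strand and that of Bst2 is chr8:71537473-71537672 on the minus strand.
Ifit3: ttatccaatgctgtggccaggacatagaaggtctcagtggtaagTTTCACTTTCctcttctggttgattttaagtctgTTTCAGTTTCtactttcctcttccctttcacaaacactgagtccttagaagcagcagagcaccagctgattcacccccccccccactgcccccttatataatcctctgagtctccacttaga
Isg15: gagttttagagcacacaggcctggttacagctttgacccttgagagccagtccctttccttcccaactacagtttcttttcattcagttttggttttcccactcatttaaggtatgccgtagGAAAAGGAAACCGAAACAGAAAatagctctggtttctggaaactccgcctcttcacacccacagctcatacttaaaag
Bst2: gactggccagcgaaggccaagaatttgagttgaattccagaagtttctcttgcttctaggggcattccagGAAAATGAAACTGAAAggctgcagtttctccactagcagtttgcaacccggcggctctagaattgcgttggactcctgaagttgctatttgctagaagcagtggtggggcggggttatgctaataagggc

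The 9 libraries held 30757875 to 49470561 reads, of which 14978013 to 30212757 were assigned to genes. Levels are given as scaled CPM, the CPM of a gene over all reads assigned to genes after scaling by the trimmed mean of M-values (TMM). Values are listed in the library order 6wk 1, 6wk 2, 10wk 1, 10wk 2 and 10wk 3 for adult mice, and P8 1, P8 2, P14 1 and P14 2 for young mice. The P14 IP 1 library stood apart: 10810 genes reached 1 deposited CPM there, against 15359 to 15609 in the adult and 13836 to 15203 in the other young libraries, and its correlation with P14 IP 2 across genes was 0.861, against 0.904 to 0.969 for other pairs of the same age. The gene model Gm42418, which overlaps a ribosomal RNA unit, took 10.2% of its gene reads, against 1.22% to 3.65% in the other 8 libraries. The 10wk IP 1 library was low for several strongly pulled-down RNAs, such as Igf2 and H19. Results that rest on P14 IP 1 are given with and without it. Each age had its own mean in the fit, so leaving out a library of P8, P14 or 6wk leaves that age with 1 library. Such a library adds nothing to the spread that the fit measures, and calls from these fits describe only the dependence on single libraries.

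Over 18607 genes tested with limma, 1162 differed between adult and young pulldown at an adjusted p below 0.05, which is 6.24% of all. Of these, 521 (2.8%) were higher and 641 (3.44%) were lower in adult mice. The genes called higher had a median log2 difference, adult minus young, of 1.93 in the pulldown and 1.31 in the whole-cochlea input, and 502 of 521 had the same sign there. Those called lower had medians of -1.50 in the pulldown and -0.77 in the input, with 571 of 641 of the same sign. Over all 18607 genes, the pulldown and input differences correlated at 0.57 (Pearson). The share of all genes with the same sign was not computed, so the same-sign counts do not set the called genes apart from others. The genes were chosen by their pulldown difference, which enlarges the pulldown medians but not the input ones, so their sizes cannot be compared. The test of a different change in pulldown and input, given below, called 2 of the higher and 15 of the lower genes, against 0.197% of all genes tested there. In the input itself 260 of the higher and 261 of the lower genes were called in the same direction, 0 of the higher and 1 of the lower in the opposite one. Over all 19828 genes of the input test, 1604 were called (8.09%, of which 4.86% higher and 3.23% lower). That fit held the pulldown libraries as well. Whether a difference in pulled-down RNA came from outer hair cells or from carried-over RNA of the cochlea was not tested by these counts.

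The balance of higher and lower genes depended on the scaling. With the CPM as deposited, 843 genes were called higher and 291 lower, where the median log2 difference of all genes was 0.31 in place of 0.05. There 504 of the 521 higher genes kept their call, but only 291 of the 641 lower ones. The TMM factors were 1.21 to 1.41 in the adult libraries, 1.07 to 1.18 in both P8 libraries and P14 IP 2, and 0.597 in P14 IP 1. A factor above 1 lowers the scaled CPM of a library, and a factor below 1 raises it. The count of calls was 225 without 6wk IP 2, 232 without 6wk IP 1, 345 without P8 IP 2, 472 without 10wk IP 3, 641 without 10wk IP 2, 726 without P8 IP 1 and 768 without 10wk IP 1, and was 5357 without P14 IP 2. Without P14 IP 1 it was 791, with 402 higher (2.17%) and 389 lower (2.1%), of which 288 and 348 were among the genes called with all libraries. Adult and young libraries did not overlap in 8.53% of all tested genes (4.13% higher and 4.4% lower in adult mice), and in 731 genes (3.93%) the difference was also called.

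**Figure D1:**
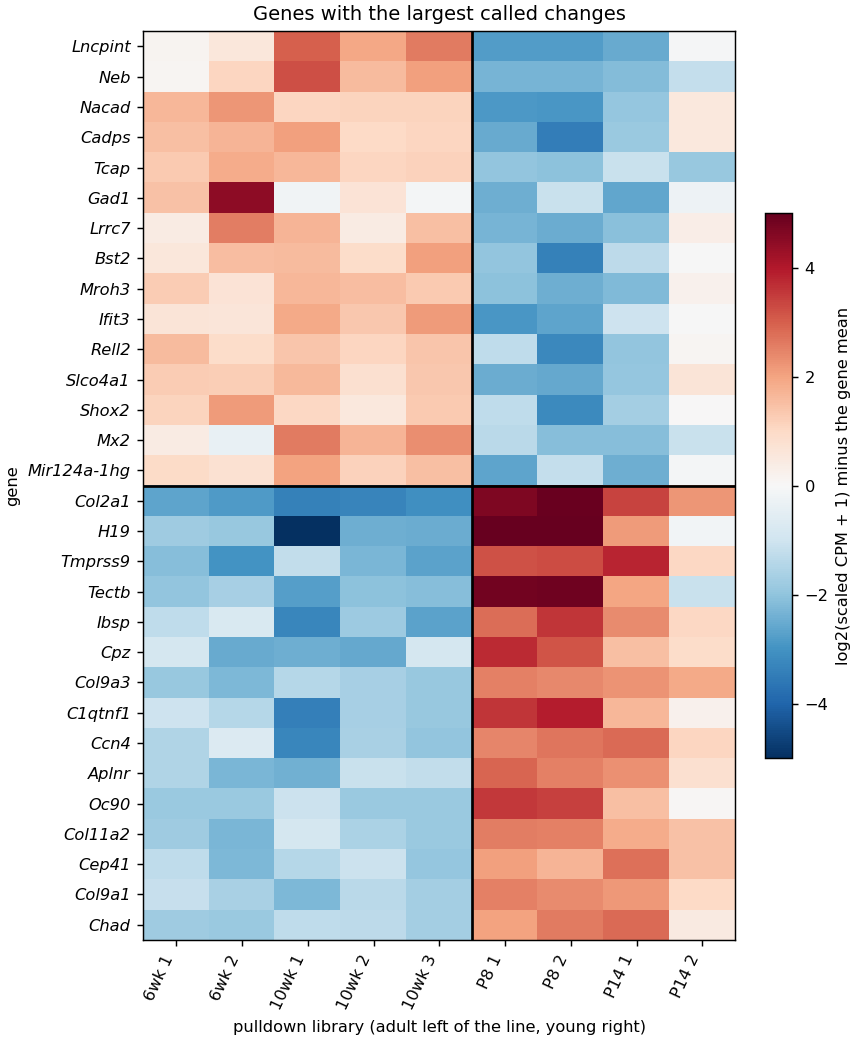
Heat map of the 15 largest called increases (upper block) and the 15 largest called decreases (lower block), with adult libraries left of the line and young libraries right of it; the colour is log2(scaled CPM + 1) minus the mean of the gene over the 9 libraries, drawn from -5 to 5. P14 2 is the palest young library for most genes of both blocks, and H19 and Col2a1 span the widest ranges.

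The largest decrease was that of Col2a1 (ENSMUSG00000022483, chromosome 15, 97975602 to 98004695, minus strand, GRCm38), which encodes the chain of type II collagen, the fibrillar collagen of cartilage and of the tectorial membrane. Its level was 105, 91.0, 62.1, 65.1 and 77.6 scaled CPM in the adult libraries, against 16732, 20219, 6853 and 2989 in the young ones. All adult libraries lay far below all young ones, and both P28 libraries, at 486 and 614, lay between them. The means were 80.2 ± 18.1 in adult and 11698 ± 8109 in young libraries (SD, n = 5 and 4). The log2 difference was -6.79 ± 0.35 (SE), with a limma adjusted p of 8.26e-09 (7.17e-07 without P14 IP 1), and the input difference was -7.02. In a bulk pulldown, fewer cells of a type and less RNA per cell cannot be told apart.

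H19 (ENSMUSG00000000031, chromosome 7, 142575529 to 142578143, minus strand) was lower in adult pulldown, with 124, 112, 11.0, 76.6 and 75.7 scaled CPM against 24775, 25265, 1874 and 388 in young pulldown. Adult and young libraries did not overlap, and within the young group both P8 libraries were more than 10 times above either P14 library. The log2 difference was -6.04 ± 0.53 (SE), with a limma adjusted p of 7.14e-06 (0.000505 without P14 IP 1), and the input difference was -5.29. Reads of H19 may include those of small annotated RNAs on its opposite strand, Gm27786 and Gm27483, since the strand setting of the counting is not given in the sources used here.

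Slc4a11 and Snhg11 moved the other way. Slc4a11 (ENSMUSG00000074796, chromosome 2, 130684113 to 130697519, minus strand), a membrane transporter known from fibrocytes of the inner ear and from the cornea, rose in adult pulldown. It was at 1044, 706, 1336, 1119 and 839.9 scaled CPM in adult libraries, against 16.1, 6.63, 977 and 585 in young ones. P14 1 lay within the adult range and P14 2 below it, while both P8 libraries were far lower. The log2 difference was 3.37 ± 0.33 (SE), with a limma adjusted p of 1.79e-05 (0.00028 without P14 IP 1), and the input difference was 4.14. The 10wk libraries differed by 6.56 from P8 (limma adjusted p = 3.58e-07) and by 0.51 from P14 (limma adjusted p = 0.479). Snhg11 (ENSMUSG00000044349, chromosome 2, 158375638 to 158386145, plus strand), a small nucleolar RNA host gene expressed in neurons, also rose. It was at 194, 224, 697, 375 and 456 scaled CPM in adult libraries, against 11.5, 2.45, 212 and 336 in young ones. Both P14 libraries lay among the adult ones for Snhg11 and both P8 libraries below them (log2 difference 2.94 ± 0.35 (SE), limma adjusted p = 0.000153; 0.00385 without P14 IP 1), and the input difference was 1.40.

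**Figure D2:**
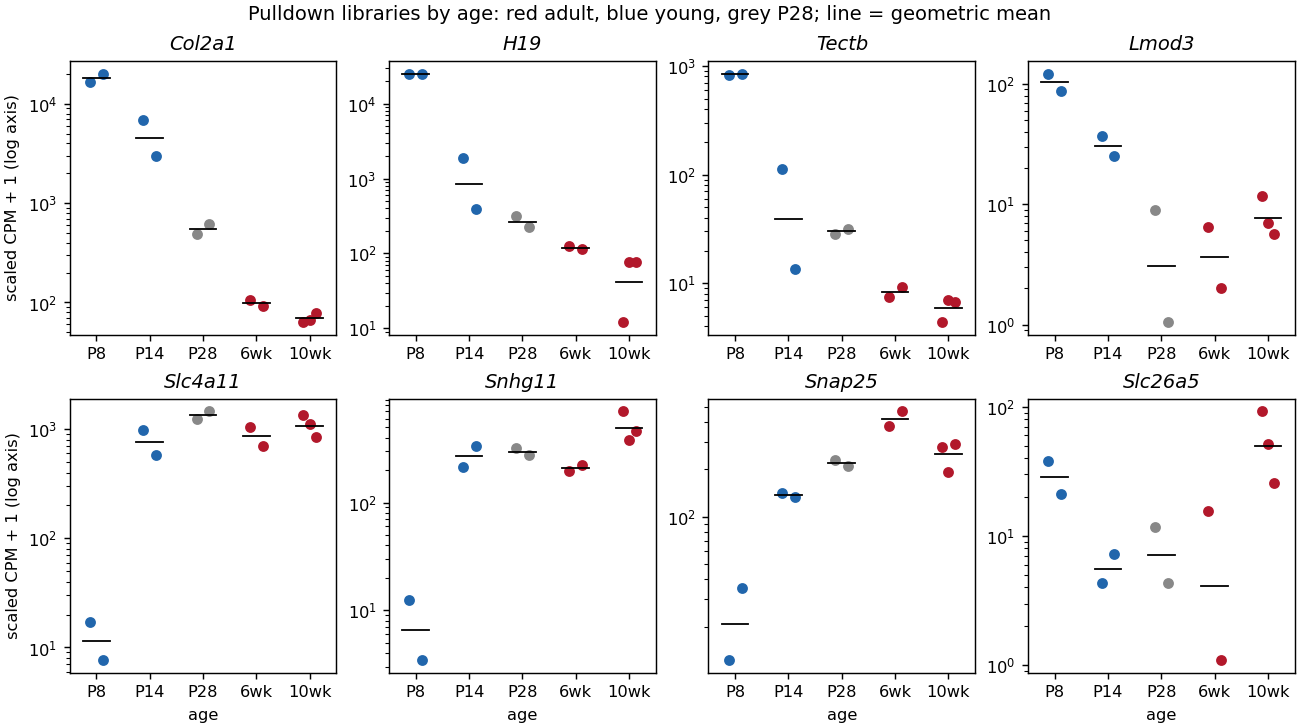
Level of 8 genes in the pulldown at P8, P14, P28, 6wk and 10wk, as scaled CPM + 1 on a log axis. Each point is 1 library, red adult, blue young and grey P28, and each short line marks the geometric mean of an age. Col2a1, H19, Tectb and Lmod3 are lower in the adult libraries, Slc4a11, Snhg11 and Snap25 are higher than at P8, and Slc26a5 has overlapping groups.

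Genes of the tectorial membrane and of otoconia, the mineral bodies of the vestibular organs, were mostly lower in adult pulldown. Of 11 tested, 7 fell and 1 rose (median log2 difference -2.80, against 0.05 over all genes tested). The summed level of the list was 839 to 1944 scaled CPM in the adult and 8276 to 16056 in the young libraries. Tectb, which encodes β-tectorin, was at 6.54, 8.31, 3.37, 5.98 and 5.77 scaled CPM in adult libraries, against 829, 851, 112 and 12.4 in young ones. All adult values were below all young values, and P14 2 was the young library nearest to them (log2 difference -4.68 ± 0.48 (SE), limma adjusted p = 2.89e-05; 0.000107 without P14 IP 1). Tecta, for α-tectorin, fell by 3.10 on the log2 scale (limma adjusted p = 0.00446, and 0.0543 without 6wk IP 1). Col11a1 and Col11a2, chains of a minor fibrillar collagen, fell by 2.80 and 3.82, and Emilin2, an extracellular glycoprotein, by 2.85. Oc90, the main matrix protein of otoconia, was at 0, 0, 0.744, 0 and 0 scaled CPM in adult libraries, against 40.9, 37.5, 9.32 and 2.76 in young ones. Of the 5 adult libraries, 4 held no read of it (log2 difference -3.85 ± 0.54 (SE), limma adjusted p = 0.000636). The call of Otol1, another otoconial protein, at -1.86 (limma adjusted p = 0.049), held only without P14 IP 2 or P8 IP 2, with an adjusted p of up to 0.202 otherwise.

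Ceacam16, which encodes a glycoprotein of the striated-sheet matrix of the tectorial membrane, was the member that rose. It stood at 171, 118, 232, 197 and 152 scaled CPM in adult libraries, against 8.37, 2.02, 437 and 424 in young ones. Both P14 libraries were above every adult library and both P8 libraries far below, so that the groups overlapped (log2 difference 1.79 ± 0.32 (SE), limma adjusted p = 0.00463; 0.0177 without P14 IP 1). Against P8 the 10wk libraries differed by 5.17 (limma adjusted p = 2.92e-06) and against P14 by -1.17 (limma adjusted p = 0.112).

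Cartilage genes had 8 of 17 tested members called lower and 0 higher (median -1.27). Their summed level was 2267 to 3210.2 scaled CPM in the adult and 16195 to 41525 in the young libraries. The 3 chains of type IX collagen, which coats type II fibrils, all fell. Col9a3 was at 106, 82.9, 146, 125 and 106 scaled CPM in adult libraries, against 2284, 2096, 1886 and 1476 in young ones (log2 difference -4.13 ± 0.29 (SE), limma adjusted p = 6.03e-07). Col9a1 fell by 3.59 and Col9a2 by 3.22. In each of the 3 chains, no adult library overlapped a young one. Cnmd, for chondromodulin, fell by 1.46 and Sox9, the transcription factor that drives cartilage formation and marks supporting cells, by 1.27. Both calls were lost without 6wk IP 1, 6wk IP 2 or P8 IP 2 (limma adjusted p of up to 0.0934). Leaving out each library in turn left 6 to 10 cartilage genes called lower, and in the input 11 of the 17 were called lower.

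Bone genes showed 8 of 15 members lower and 1 higher (median -1.86). Their summed level was 1325 to 10654 scaled CPM in the adult and 8309.6 to 23321 in the young libraries. Ibsp, for bone sialoprotein, a mineral-binding matrix protein, was at 22.3, 32.0, 4.76, 14.8 and 7.62 scaled CPM in adult libraries, against 389.5, 666, 285 and 114 in young ones. Every young library was above every adult one (log2 difference -4.25 ± 0.36 (SE), limma adjusted p = 6.86e-06; 0.000247 without P14 IP 1). Col1a1 and Col1a2, the chains of type I collagen, each fell by 3.45. Bglap, for osteocalcin, fell by 2.84, Dmp1, a matrix protein of osteocytes, by 2.43 and Runx2, the master transcription factor of osteoblasts, by 2.33. The count of lower members was 5 without 6wk IP 1.

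Spp1, for osteopontin, lies in the same cluster of bone-matrix genes on chromosome 5 as Dmp1, Ibsp and Mepe, within 96.5 kb of Mepe, but was the member that rose. It was at 779, 668, 775, 472 and 426 scaled CPM in adult libraries, against 85.6, 78.0, 1054 and 491 in young ones. P14 1 was above all adult libraries and both P8 libraries below all (log2 difference 1.35 ± 0.33 (SE), limma adjusted p = 0.0231). The call was lost without 6wk IP 1, 6wk IP 2, P8 IP 1 or P8 IP 2, with an adjusted p of up to 0.123. In the input 12 of the 15 bone genes were called lower, and Spp1 had a difference of 1.56.

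Other fibrillar and basement membrane collagens had 9 of 13 members lower and 0 higher (median -1.48). Their summed level was 240.4 to 423 scaled CPM in the adult and 607 to 2317 in the young libraries. Col4a2, a chain of the common basement membrane collagen, fell by 1.81 and Col4a3, a chain of a more restricted form, by 2.62. Col3a1, of loose connective tissue, was at 69.0, 39.4, 23.2, 31.6 and 40.0 scaled CPM in adult libraries, against 791, 844, 186 and 125 in young ones, with no overlap between groups (log2 difference -3.11 ± 0.28 (SE), limma adjusted p = 1.11e-05). The count was 4 without 6wk IP 2 or without P8 IP 2, and 11 of the 13 were lower in the input. Col4a1 and Col4a2 overlap at their starts on opposite strands, and their reads there cannot be told apart if strand was not used in counting.

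Fibrocyte and mesenchyme markers had 6 of 13 members lower and 1, Slc4a11, higher (median -0.95). Their summed level was 4419.6 to 6611 scaled CPM in the adult and 6443 to 16808 in the young libraries. Lum, for the keratan sulphate proteoglycan lumican, fell by 2.84 and kept its call with each library left out. Car3, a carbonic anhydrase, fell by 1.65 and Pou3f4, a mesenchymal transcription factor linked to deafness, by 1.72, and both calls were lost without 6wk IP 2 (limma adjusted p = 0.0776 and 0.0527). The count of lower members was 2 without 6wk IP 2. Cartilage, bone and collagen genes fell in the whole-cochlea input as well, and the part of carried-over RNA in the pulldown values was not tested.

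**Figure D3:**
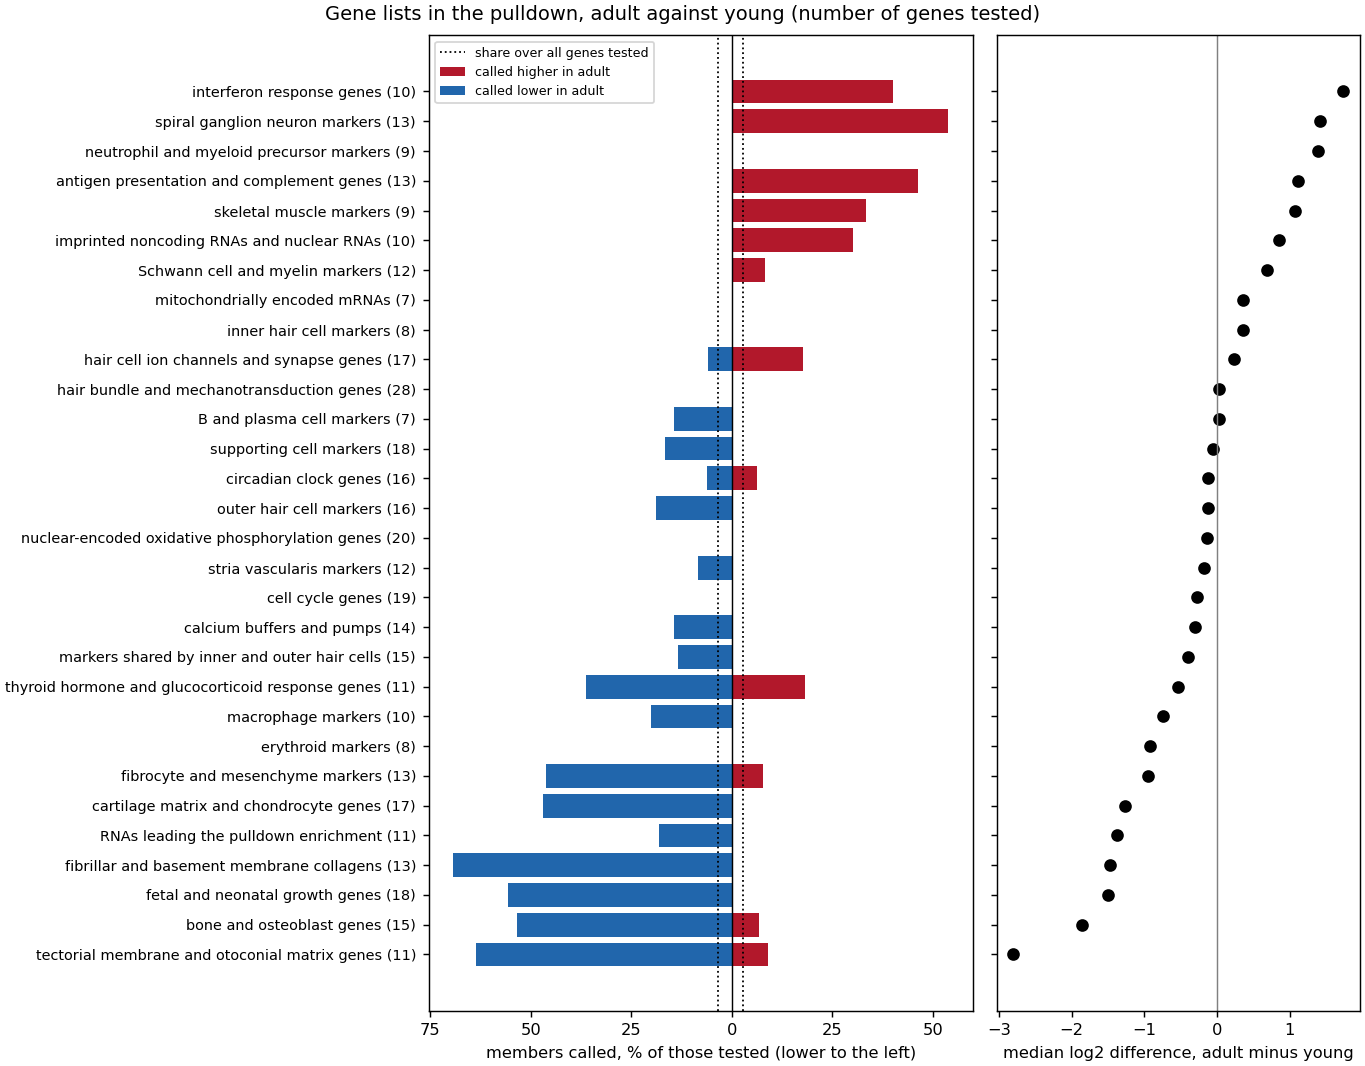
Left, share of each list's tested genes called higher (red, to the right) or lower (blue, to the left) in adult pulldown, with the share over all tested genes as dotted lines at 2.8% and 3.44%; right, median log2 difference of each list, adult minus young. The matrix, collagen, fetal growth and pulldown-leading lists lie lowest, with medians from -2.80 to -1.27, and the interferon, neuronal and neutrophil lists highest, with medians from 1.39 to 1.73.

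Further genes among the 15 largest decreases lay outside the lists. Ccn4, a matricellular target of Wnt signalling, was at 38.4, 70.2, 10.9, 35.5 and 27.9 scaled CPM in adult libraries, against 614, 725, 803 and 239 in young ones, without overlap. C1qtnf1, a secreted C1q-like protein, fell by 4.11, and Cpz, a carboxypeptidase with a Wnt-binding domain, by 4.15. Aplnr, the receptor for apelin, fell by 3.85, Chad, for chondroadherin of cartilage, by 3.58 and Cep41, a centrosomal protein, by 3.62. All 15 genes of the largest decreases kept their call with each library left out. Tmprss9, a membrane serine protease that fell by 5.14, overlaps Timm13 and Chad overlaps Acsf2 on the opposite strand, so that both values are uncertain. The same doubt holds for Col9a3, which overlaps Tcfl5, for C1qtnf1 and Cep41, which overlap antisense RNAs, and, in the lists, for Runx2, Igf2bp3 and Tap1, which overlap Supt3, Malsu1 and Psmb9.

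Genes of fetal and neonatal growth had 10 of 18 tested members lower and 0 higher (median -1.50). Summed over the list, the level was 694 to 2444 scaled CPM in the adult and 2977 to 44142 in the young libraries. Igf2, the fetal growth factor whose gene lies 72.6 kb from H19, was at 699, 433, 36.3, 644 and 504 scaled CPM in adult libraries, against 16326, 15209, 1626 and 563 in young ones. The P14 2 value lay within the adult range, and 10wk 1 was far below the other adult libraries. The call (log2 difference -3.45 ± 0.67 (SE), limma adjusted p = 0.00684) was lost without P14 IP 1 (limma adjusted p = 0.0557) and without 6wk IP 2 (0.0562). Igf2bp1 and Igf2bp3, fetal RNA-binding proteins, fell by 2.65 and 2.62. Marcks, a membrane protein of growing neurites, fell by 2.23, Mdk and Ptn, a pair of related growth factors, by 2.01 and 1.46, and Cdkn1c, an imprinted inhibitor of cell division, by 1.77. Of the 10, only H19, Marcks and Cdkn1c were called with each library left out. The count was 3 without 6wk IP 2, 4 without 6wk IP 1 or without P8 IP 2, and 6 without P14 IP 1. Cell cycle genes, tested apart, had 0 of 19 called (median -0.28; 1 lower without P8 IP 1 and 4 lower without P14 IP 2).

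Noncoding RNAs of imprinted loci and of the nucleus had 3 of 10 tested members higher and 0 lower (median 0.86). Beside Snhg11 these were Neat1, the scaffold RNA of paraspeckles, and Miat, a nuclear RNA of neurons. Both of their calls were lost without 6wk IP 1 or P8 IP 2, that of Miat also without 6wk IP 2 (limma adjusted p of up to 0.0788). The count was 1 without 6wk IP 1 or without P8 IP 2. Neat1 was at 387, 328, 1601, 1194 and 1099.5 scaled CPM in adult libraries, against 64.2, 21.0, 772 and 1164 in young ones. Its P14 libraries lay within the adult range and its P8 libraries below it.

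The label of the cells was checked on outer hair cell genes. Of 16 markers tested, 13 in adult and 15 in young mice had a higher mean in the pulldown than in the input, against 54.96% and 54.31% of all tested genes. Slc26a5, which encodes prestin and whose locus drives Cre in these mice, was at 14.7, 0.0917, 90.8, 50.9 and 24.8 scaled CPM in adult libraries, against 37.3, 20.3, 3.29 and 6.23 in young ones. The values spread widely within both groups, 6wk 2 was close to 0, and the groups overlapped (log2 difference 0.19 ± 0.65 (SE), limma adjusted p = 0.887). Means in the input were 8.45 in adult and 5.15 in young mice. Rpl22, the gene that carries the tag, was at 47.8 to 71.6 scaled CPM in adult and 60.0 to 84.7 scaled CPM in young libraries (log2 difference -0.30 ± 0.27 (SE), limma adjusted p = 0.524).

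Of the 16 outer hair cell markers, 0 were called higher and 3 lower in adult pulldown (median -0.13, and 0.23 with the CPM as deposited). The list held a total of 835 to 1648 scaled CPM in the adult and 1182 to 2596 in the young libraries. Lmod3, an actin-nucleating leiomodin first known from muscle, fell most. It was at 5.52, 1.01, 10.6, 5.94 and 4.61 scaled CPM in adult libraries, against 121, 85.5, 35.7 and 24.3 in young ones. The groups did not overlap (log2 difference -3.41 ± 0.47 (SE), limma adjusted p = 0.00051; 0.00395 without P14 IP 1). Lbh, a transcriptional cofactor linked to maintenance of outer hair cells, was at 106, 116, 140.5, 105 and 105 in adult libraries, against 371, 412, 686 and 197 in young ones, also without overlap (log2 difference -1.73 ± 0.33 (SE), limma adjusted p = 0.00645; 0.051 without 6wk IP 1).

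Ocm, for oncomodulin, the calcium buffer that fills outer hair cells, was at 168, 155, 813, 252 and 429 scaled CPM in adult libraries, against 624, 783, 1041 and 451 in young ones. 10wk 1 lay among the young libraries (log2 difference -1.36 ± 0.37 (SE), limma adjusted p = 0.0406). The call held with 10wk IP 1 or P14 IP 2 left out but not without any of the other 7 libraries, where the limma adjusted p reached 0.17. Ikzf2, the transcription factor that sets the outer hair cell programme, was at 62.7, 97.7, 37.4, 78.3 and 56.4 in adult libraries, against 99.0, 91.6, 152 and 123 in young ones. It was not called (log2 difference -0.79 ± 0.29 (SE), limma adjusted p = 0.11), and 6wk 2 was the adult library within the young range. Other members did not pass the test. Of the 13 markers not called, 6 had a positive and 7 a negative difference, the highest being 1.23. In 3 of the 16 markers the groups did not overlap, against 8.53% of all genes tested. Kcnn2, the calcium-activated potassium channel of the efferent synapse, had a log2 difference of 0.75. Chrna9 and Chrna10, the subunits of the efferent acetylcholine receptor, had -0.77 and -0.86, and Bcl11b, a transcription factor, 0.22. The count of lower markers was 1 without 6wk IP 1 and 7 without P14 IP 2, and 1 was higher without P14 IP 1 or without P14 IP 2.

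**Figure D4:**
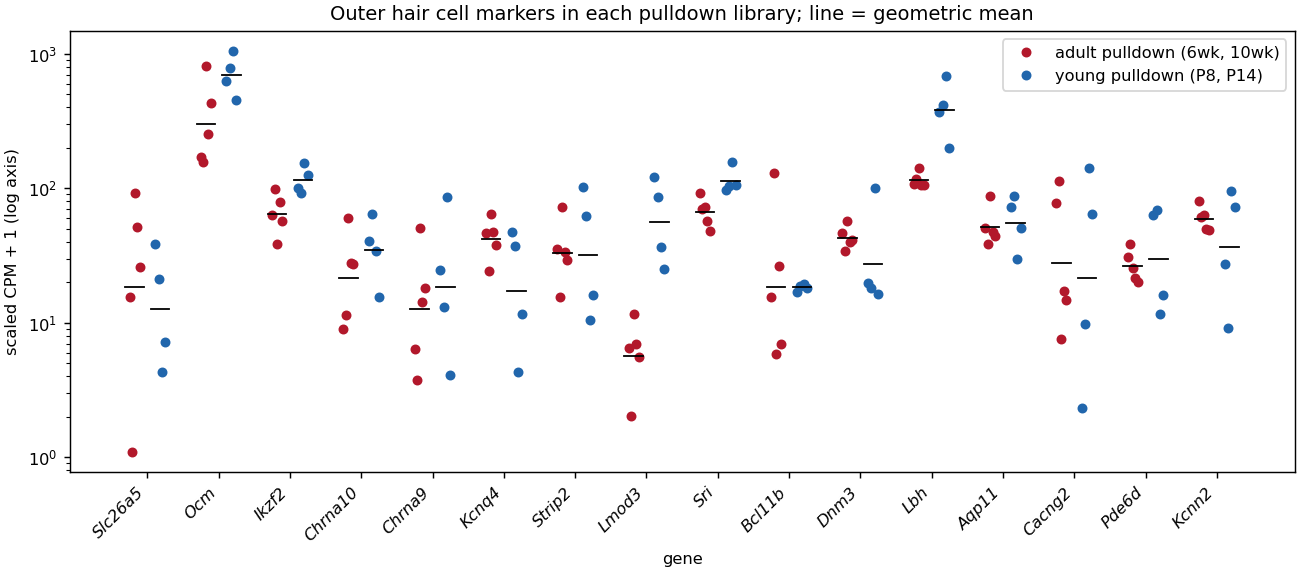
Level of the 16 outer hair cell markers in each pulldown library, as scaled CPM + 1 on a log axis, with adult libraries (red) left of young libraries (blue) for each gene. Of the 3 called markers, Lmod3 and Lbh have no overlap between groups and Ocm overlaps through 1 adult library. Slc26a5 spreads over the widest range.

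Genes that mark both inner and outer hair cells had 2 of 15 tested members lower and 0 higher (median -0.40). The count was 6 without P14 IP 2, 0 without 6wk IP 1, 6wk IP 2 or P8 IP 2, and 1 without P14 IP 1, 10wk IP 2, 10wk IP 3 or P8 IP 1. Pou4f3, the transcription factor that hair cells need to survive, was at 21.6, 16.4, 73.9, 22.7 and 30.1 scaled CPM in adult libraries, against 128, 168, 62.4 and 26.3 in young ones. 10wk 1 was above both P14 libraries and 10wk 3 above P14 2 (log2 difference -1.51 ± 0.37 (SE), limma adjusted p = 0.0256). The call held only without 10wk IP 1 or without P14 IP 2, with a limma adjusted p of up to 0.126 otherwise. Calb1, for the calcium buffer calbindin, was at 23.0, 31.8, 11.0, 4.18 and 4.69 in adult libraries, against 148, 133, 36.8 and 11.5 in young ones. Both 6wk libraries exceeded P14 2 (log2 difference -1.97 ± 0.42 (SE), limma adjusted p = 0.0117), and the call was lost without 6wk IP 1, 6wk IP 2 or P8 IP 2 (up to 0.079). The input differences of these genes were -0.35 and 0.11, neither called. Of 14 calcium buffers and pumps, Ocm and Calb1 were called lower and 0 others (median -0.30). The lower count was 5 without P14 IP 2, 0 without 6wk IP 1, 6wk IP 2 or P8 IP 2, and 1 without P14 IP 1, 10wk IP 2, 10wk IP 3 or P8 IP 1, and 1 member was higher without P14 IP 1 or P14 IP 2. Of 8 inner hair cell markers 0 were called (median 0.35; 1 higher without P14 IP 1, and 2 higher and 2 lower without P14 IP 2).

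Hair bundle and mechanotransduction genes, which build the stereocilia and their transduction channels, had 0 of 28 tested members called in either direction (median 0.03). The log2 differences ranged from -1.11 for Cdh23, a tip-link cadherin, to 1.08 for Ush1g, a tip-link scaffold. Together its members had 559 to 1344 scaled CPM in the adult and 698 to 1362 in the young libraries, and 26 of the 28 in adult and 24 in young mice had a higher mean in the pulldown than in the input. With 2 or 3 libraries at each age, 0 calls do not show that the bundle genes were equal. At an unadjusted p below 0.05, 4490 of all genes tested differed.

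A list set up as ion channels and synapse genes of hair cells had 3 of 17 members higher and 1, Ano1, lower (median 0.23). Ano1, a calcium-activated chloride channel known from supporting cells of the young organ of Corti, was at 7.12, 2.57, 11.6, 5.31 and 6.07 scaled CPM in adult libraries, against 182, 197, 40.6 and 12.6 in young ones. No adult library reached a young one (log2 difference -3.34 ± 0.45 (SE), limma adjusted p = 0.000494; 0.00321 without P14 IP 1). Bsn, for the presynaptic scaffold bassoon, was at 88.2, 139, 46.0, 54.5 and 58.7 scaled CPM in adult libraries, against 13.7, 21.3, 28.5 and 44.9 in young ones, also without overlap (log2 difference 1.59 ± 0.30 (SE), limma adjusted p = 0.00664; 0.0815 without 6wk IP 2). Pclo, for the related piccolo, rose by 2.14, and its call was lost without 6wk IP 1, 6wk IP 2 or P8 IP 1 (limma adjusted p of up to 0.0998). The count of higher members was 0 without 6wk IP 2, 1 without 6wk IP 1 or without P8 IP 1, and 6 without P14 IP 2. The count of lower members was 4 without P14 IP 2.

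Markers of spiral ganglion neurons, which contact hair cells and run through the cochlear axis, had 7 of 13 members higher and 0 lower (median 1.41), and 8 of the 13 were higher in the input. The summed level was 1131 to 2271 scaled CPM in the adult and 206 to 1967 in the young libraries, a range that overlapped between groups. Snap25, the membrane fusion protein of synaptic vesicles, which hair cells also express, was at 376, 465, 277, 191 and 289 scaled CPM in adult libraries, against 11.2, 34.2, 141 and 132 in young ones. All adult libraries were above all young ones (log2 difference 2.60 ± 0.31 (SE), limma adjusted p = 0.000159; 0.00265 without P14 IP 1), and P14 was nearer to them than P8. Nefh, Nefl and Nefm, the neurofilament chains, rose by 2.07, 1.61 and 1.41, and Prph, the related peripherin of thin sensory fibres, by 2.03, the last with a call that held only without P14 IP 2. Nefl and Nefm overlap each other on opposite strands, so that both values are uncertain. Snap25 alone of the 7 was called with each library left out: the count was 1 without 6wk IP 1 or without P8 IP 1, 2 without 6wk IP 2, and 4 without 10wk IP 2 or without 10wk IP 3. The part of neuronal RNA carried into the pulldown was not tested.

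Among the 15 largest increases, Cadps, which primes dense-core vesicles, was at 33.5, 39.4, 49.8, 23.2 and 24.7 scaled CPM in adult libraries, against 1.17, 0.106, 2.41 and 16.8 in young ones (log2 difference 3.31 ± 0.55 (SE), limma adjusted p = 0.00254). Gad1, the enzyme that makes the transmitter GABA, was at 45.6, 367, 14.0, 26.2 and 14.6 in adult libraries, against 2.10, 6.81, 1.75 and 13.1 in young ones. Neither gene overlapped between groups. The Gad1 call (3.15) was led by 6wk 2 and was lost without it (limma adjusted p = 0.096). Lrrc7, for the postsynaptic protein densin, rose by 3.00, with its call lost without 6wk IP 2 or P8 IP 2 (limma adjusted p of up to 0.115), and Mir124a-1hg, the host gene of the neuronal microRNA miR-124, by 2.80.

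Neb, for nebulin, the ruler of muscle thin filaments, was at 4.39, 9.56, 46.5, 13.9 and 20.1 scaled CPM in adult libraries, against 0, 0, 0.110 and 1.23 in young ones. Tcap, for the titin cap protein telethonin, was at 9.75, 14.6, 12.7, 8.10 and 8.70 in adult libraries, against 0.117, 0.0354, 0.987 and 0.149 in young ones. In both genes the adult libraries lay above all young ones (log2 difference 3.44 ± 0.58 (SE), limma adjusted p = 0.003 for Neb, log2 difference 3.20 ± 0.53 (SE), limma adjusted p = 0.00272 for Tcap). A list of skeletal muscle markers had 3 of 9 members higher and 0 lower (median 1.07). Ckm, the muscle creatine kinase, rose by 2.18, Tnnc2, a fast troponin, by 1.82 and Myh4, a fast myosin, by 1.50. Its members summed to 45.3 to 118 scaled CPM in the adult and 27.4 to 173 in the young libraries, which overlapped between groups. The count was 0 without 10wk IP 1, 10wk IP 2, P14 IP 1, 6wk IP 2, P8 IP 1 or P8 IP 2, and 1 without 6wk IP 1. Whether muscle RNA entered the dissection was not tested.

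Of the other large increases, Lncpint, a long noncoding RNA induced by p53, was at 6.58, 9.23, 53.9, 25.5 and 41.3 scaled CPM in adult libraries, against 0, 0, 0.219 and 5.67 in young ones. P14 2 alone of the young libraries held more than 1 scaled CPM (log2 difference 3.46 ± 0.60 (SE), limma adjusted p = 0.00329). Nacad, a nascent-chain-associated protein, rose by 3.32 and kept its call with each library left out. Mroh3 (2.87), Rell2 (2.86), Slco4a1, an organic anion transporter (2.84), and Shox2, a homeobox transcription factor (2.82), lost their calls with a 6wk library left out, Mroh3 and Slco4a1 without either, Rell2 without 6wk IP 1 and Shox2 without 6wk IP 2 (limma adjusted p of up to 0.0928). Rell2 and Shox2 overlap Fchsd1 and Rsrc1 on the opposite strand, and Lncpint overlaps several noncoding RNAs, so that these values are uncertain.

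Interferon response genes had 4 of 10 members higher and 0 lower (median 1.73), and all 10 had a positive difference. The sum over the list was 235 to 387 scaled CPM in the adult and 32.2 to 208 in the young libraries. Ifit3, which binds RNA and curbs viral translation, was at 17.9, 17.1, 43.6, 29.6 and 52.2 scaled CPM in adult libraries, against 0.612, 0.922, 4.82 and 10.9 in young ones. Every adult library was above every young one, and P14 2 was the highest young one (log2 difference 2.86 ± 0.46 (SE), limma adjusted p = 0.0022; 0.00356 without P14 IP 1), with 2.65 in the input. Bst2, for tetherin, a membrane protein that holds back budding virus, was at 15.9, 32.1, 32.4, 20.6 and 46.0 in adult libraries, against 1.90, 0.0709, 3.51 and 10.3 in young ones, again without overlap (log2 difference 2.97 ± 0.53 (SE), limma adjusted p = 0.00426; 0.0545 without 6wk IP 2).

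Isg15, the ubiquitin-like interferon product, was at 5.23, 7.27, 9.77, 4.63 and 8.96 scaled CPM in adult libraries, against 0.146, 0, 0.767 and 4.92 in young ones. 10wk 2 was just below P14 2 (log2 difference 2.07 ± 0.57 (SE), limma adjusted p = 0.0406). The call held only without P14 IP 2, with a limma adjusted p of up to 0.162 otherwise. Ifi27 rose by 1.48 and lost its call without P14 IP 1, 6wk IP 1, 6wk IP 2 or P8 IP 2 (limma adjusted p of up to 0.137). The promoters of Ifit3, Bst2 and Isg15 are those printed in the opening. The count of higher members was 1 without 6wk IP 2 and 2 without 6wk IP 1 or without P8 IP 2, and 6 of the 10 were higher in the input. Mx2, an interferon-induced antiviral GTPase outside the list, rose by 2.81 (limma adjusted p = 0.00775, and 0.0656 without 6wk IP 1). Ifit3 has a near copy, Ifit3b, 19.2 kb away, so that reads of both may be mixed.

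Antigen presentation and complement genes had 6 of 13 members higher and 0 lower (median 1.11), with a summed level of 153 to 219 scaled CPM in the adult and 68.2 to 180.3 in the young libraries. The class II genes Cd74, the invariant chain, H2-Aa, H2-Ab1 and H2-Eb1 rose by 2.37, 1.71, 1.70 and 1.61, and the class I genes H2-D1 and Tap1, a peptide transporter, by 1.11 and 2.24. Cd74 was at 12.7, 5.56, 6.25, 2.70 and 5.90 scaled CPM in adult libraries, against 0, 0, 1.64 and 0.559 in young ones. All adult libraries lay above all young ones, at a low level. Each of the 6 calls was lost with at least 1 library left out. The count was 0 without 10wk IP 3, 6wk IP 1 or P8 IP 2, 1 without 10wk IP 2 or 6wk IP 2, 2 without 10wk IP 1, and 3 without P14 IP 1 or P8 IP 1.

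The counts in the lists of blood and immune cell markers stand beside 2.8% of all genes tested called higher and 3.44% called lower. Macrophage markers had 2 of 10 members (20%) lower, Mrc1 by 2.11 and Cx3cr1 by 1.84, and 0 higher (median -0.74). Their summed level was 57.9 to 68.9 scaled CPM in the adult and 89.7 to 207 in the young libraries. The count was 4 without P14 IP 2, 1 without P8 IP 1 and 0 without any of the other 7 libraries, with limma adjusted p of 0.0648 and 0.0638 without P14 IP 1. Cx3cr1 overlaps Wdr48, which reached 98.6 scaled CPM, on the opposite strand and Csrnp1 and Gorasp1 on its own, so that its value is uncertain. Of 7 tested B and plasma cell markers, only Ighm, the heavy chain of IgM, was called (14.3% of those tested). It was at 7.92, 12.0, 12.1, 6.61 and 11.1 scaled CPM in adult libraries, against 47.2, 74.9, 42.1 and 38.9 in young ones, with no overlap (log2 difference -2.23 ± 0.38 (SE), limma adjusted p = 0.0031; 0.00596 without P14 IP 1). Neutrophil markers had 0 of 9 called (median 1.39; 4 higher without P14 IP 2), with a summed level of 14.9 to 78.0 scaled CPM in the adult and 4.47 to 68.0 in the young libraries, and erythroid markers 0 of 8 (median -0.92; 1 lower without P8 IP 1 and 3 lower without P14 IP 2).

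Genes that respond to thyroid hormone or glucocorticoid, both of which rise in blood during postnatal life and of which thyroid hormone is needed for hearing to begin, had 2 of 11 members higher and 4 lower (median -0.53). Dio2, the deiodinase that makes active thyroid hormone within tissues, was at 65.5, 51.7, 17.3, 39.7 and 35.2 scaled CPM in adult libraries, against 737, 705, 340.1 and 121 in young ones. All adult libraries were below all young ones (log2 difference -3.19 ± 0.34 (SE), limma adjusted p = 3.40e-05; 0.000537 without P14 IP 1). Thrb, a thyroid hormone receptor, fell by 1.43, Hr, the corepressor hairless, by 1.63 and Nr3c1, the glucocorticoid receptor, by 1.24, while Fkbp5 and Per1, both induced by glucocorticoid, rose by 2.10 and 1.11. Fkbp5 was at 36.1, 40.6, 31.3, 34.9 and 55.4 scaled CPM in adult libraries, against 9.22, 6.70, 3.73 and 18.9 in young ones, without overlap. Only the call of Dio2 was kept with each library left out. The count of higher members was 0 without 6wk IP 1 or 6wk IP 2 and 1 without 10wk IP 2, 10wk IP 3, P8 IP 1 or P8 IP 2. That of lower members was 1 without 6wk IP 1, 6wk IP 2 or P8 IP 2 and 2 without 10wk IP 1, 10wk IP 3, P14 IP 1 or P8 IP 1.

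The counts in the remaining lists stand beside the same shares of all genes tested, 2.8% higher and 3.44% lower. Circadian clock genes had Per1 higher and Hlf, a clock-output transcription factor, lower by 1.22 out of 16 (median -0.12), the last with a call that held only without 10wk IP 2 or P14 IP 2. The Per1 call was lost without 10wk IP 2, 10wk IP 3, 6wk IP 1, 6wk IP 2 or P8 IP 1, and either direction had 4 calls without P14 IP 2. Supporting cell markers had 3 of 18 (16.7%) lower (median -0.06). These were Fgfr3, a growth factor receptor of pillar and Deiters' cells, by 1.35, Gata3, a transcription factor of the organ of Corti, by 1.63 and Epyc, a matrix proteoglycan, by 2.30. The count was 1 without 6wk IP 1 or 6wk IP 2 and 8 without P14 IP 2. Bsnd, a chloride channel subunit, was the single call of 12 stria vascularis markers (-1.62) and Gldn, of the node of Ranvier, that of 12 Schwann cell and myelin markers (1.72), and both were lost without 6wk IP 1 and most other libraries. Nuclear-encoded genes of oxidative phosphorylation had 0 of 20 called (median -0.14; without P14 IP 2, 1 higher and 5 lower) and mitochondrially encoded mRNAs 0 of 7 tested (median 0.35), of the 13 in the genome, 5 of which were listed at 0. Of 11 RNAs that led the enrichment of the pulldown over input in these libraries, a list chosen on the same libraries, Igdcc3 fell by 2.36 and Lmbr1l by 1.36 (median -1.37), and 0 were called without P14 IP 1, 6wk IP 1, 6wk IP 2 or P8 IP 2. Of the lists with at least 1 lower call, 4 had more higher than lower calls with the CPM as deposited but not with scaled CPM. Circadian clock genes had 4 higher and 0 lower, stria vascularis markers 2 higher and 0 lower, calcium buffers and pumps 2 higher and 1 lower, and thyroid hormone and glucocorticoid response genes 3 higher and 2 lower.

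The place of P14 between P8 and adult differed between its libraries. Of the 521 genes called higher, the P14 mean lay nearer to the adult than to the P8 mean in 161, and of the 641 called lower in 129. The contrast that called these genes counts P14 as young, which favours genes whose P14 value lies away from the adult one. These counts therefore do not show where P14 lies over all genes. Taken as single libraries, P14 IP 2 lay nearer the adult mean in 283 and 286 genes and P14 IP 1 in 123 and 86, so that the place of P14 depended on the library. In pairs of ages, 10wk against P8 had 1559 genes called (8.38%), with 695 higher (3.74%) and 864 lower (4.64%). The 10wk against P14 pair had 998 (5.36%), with 202 higher (1.09%) and 796 lower (4.28%). The 6wk against P8 pair had 695 (3.74%), with 428 higher and 267 lower. The 6wk against P14 pair had 8 (0.043%), all lower, beside 2549 genes at an unadjusted p below 0.05. These comparisons share libraries, and a pair of ages has 2 or 3 libraries on each side.

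The 8 genes called between 6wk and P14 were Col2a1 (-5.52), Col9a3 (-4.14), Rarres1 (-4.01), Cep41 (-3.86), Emilin2 (-3.33), Col9a2 (-3.07), Col9a1 (-2.98) and Gm37376 (-2.93), on the log2 scale. Of these, 5 encode collagens or an elastin-associated matrix protein. Rarres1, a retinoid-induced membrane protein, was at 10.3, 16.7, 4.02, 7.24 and 9.17 scaled CPM in adult libraries, against 35.8, 37.9, 544 and 93.5 in young ones, so that P14 1 was the highest of all 9 libraries.

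**Figure D5:**
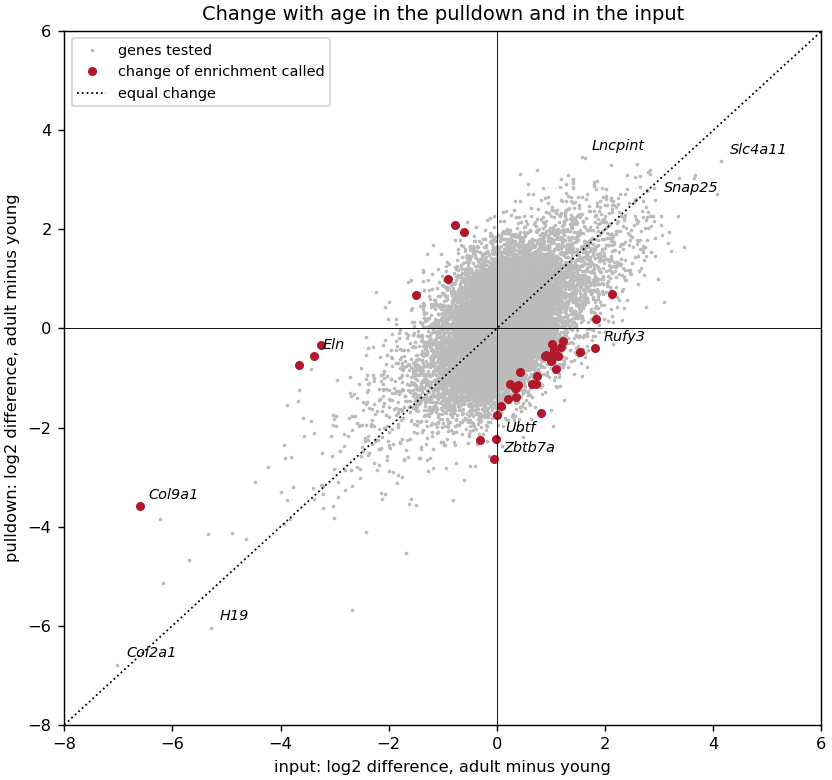
Log2 difference, adult minus young, in the pulldown (y axis) against that in the whole-cochlea input (x axis), 1 point for each gene, with the 39 genes whose enrichment differed by age in red. Col2a1 and H19 lie far to the lower left, while Ubtf and Zbtb7a lie low in the pulldown at input differences near 0.

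To find genes whose change in the pulldown differed from that in the whole cochlea, the change of enrichment was tested as the adult minus young difference in IP minus that in input. Of 19828 genes tested with limma, 39 (0.197%) were called, 8 with a positive and 31 with a negative change. The count was 0 with the CPM as deposited (824 at an unadjusted p below 0.05) and 0 with the replicate block, IP minus input within each title number (2707 at an unadjusted p below 0.05), so that none of the genes below was called under either. With a library left out it ranged from 2 without P8 input 2, a library in which Gm42418 took 58.3% of gene reads, to 2803 without P14 IP 2. Without both P8 input 2 and P14 IP 1, an alternative chosen after the data were seen, it was 32. Of the other libraries left out in turn, the counts were 3 without 6wk IP 1 or P8 IP 2, 4 without 6wk input 2, 6 without P14 input 1, 7 without 6wk IP 2 or 6wk input 1, 9 without 10wk input 1 or 10wk input 2, 12 without 10wk input 3 and 15 without 10wk IP 3. They were higher at 68 without P8 IP 1, 69 without P14 IP 1, 71 without P14 input 2 and 90 without 10wk IP 1.

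Ubtf, the transcription factor that binds ribosomal RNA genes, fell in the pulldown by 2.24 (limma adjusted p = 0.000636) at an input difference of -0.02. It was at 98.9, 90.7, 203, 118 and 99.9 scaled CPM in adult pulldown, against 2376, 1468, 212 and 109.9 in young pulldown. Both P8 libraries were far above the others, while input means were 142 in adult and 142 in young mice (change of enrichment -2.22 ± 0.33 (SE), limma adjusted p = 0.00689). Zbtb7a, a zinc-finger repressor, was at 284, 444, 82.7, 160.1 and 176 scaled CPM in adult pulldown, against 1162, 1311, 2596 and 865 in young pulldown, with all adult libraries below all young ones. Its input means were 125 in adult and 144 in young mice (change of enrichment -2.59 ± 0.40 (SE), limma adjusted p = 0.0106). Rhoc, a small GTPase of actin control, was at 45.3, 39.3, 32.3, 32.1 and 30.7 scaled CPM in adult pulldown, against 199.7, 176, 305 and 92.1 in young pulldown, without overlap (change of enrichment -1.94 ± 0.38 (SE), limma adjusted p = 0.0356). Gpd2, a mitochondrial glycerol-phosphate dehydrogenase, had a change of enrichment of -1.65.

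Col9a1 had the opposite pattern, with a change of enrichment of 3.02 ± 0.35 (SE), limma adjusted p = 0.00059. Its pulldown levels were 169, 119, 77.9, 146 and 113 scaled CPM in adult libraries, against 2132, 1909.8, 1696 and 750.2 in young ones, and its input means were 29.5 in adult and 3669 in young mice, so that it fell less in the pulldown (-3.59) than in the input (-6.61). Eln, for elastin, with input means of 7.57 in adult and 95.0 in young mice, and the matrix proteins Cilp2 and Kera had positive changes of 2.82, 2.92 and 2.91, while none of the 3 was called in the pulldown itself. Rufy3, a protein of neuronal polarity, had -2.21, with a pulldown difference of -0.40 that was not called and an input difference of 1.81.

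Reads that fell outside annotated genes made up 23.0%, 27.3%, 47.7%, 36.0% and 41.0% of all reads in the adult libraries, against 25.9%, 20.2%, 30.5% and 37.9% in the young ones. The ranges overlapped. The means of 35.0% ± 10.0 in adult and 28.6% ± 7.52 in young libraries (SD, n = 5 and 4) differed by 6.41 percentage points (exact two-sided permutation test p = 0.333; the smallest possible is 0.0159). The number of genes at 1 deposited CPM or more averaged 15467 ± 94.6 in adult and 13715 ± 2029 in young libraries, and every adult library was above every young one (exact two-sided permutation test p = 0.0159, the smallest possible). The part of this difference in the calls was not tested.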

How the data were processed

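Libraries were made with a directional kit from HA-antibody pulldown or whole cochlear RNA, per the labels' protocols. The deposited values are CPM, the reads of a gene over all reads of the table, which the authors made from TopHat alignments; the build was GRCm38, per the submitters' processing notes. Counter, versions and strand setting are not given in the sources used. Each table has 49671 gene rows and 5 entries for reads without a gene. All deposited CPM were whole multiples of the value of 1 read (0.0202 to 0.0325 CPM in the 9 libraries) within 0.01 reads, so whole reads were recovered. Reads of genes were scaled with TMM over all 22 libraries (edgeR 4.0.16). Genes with at least 1 scaled CPM in at least 2 of the 9 libraries were tested with limma 3.58.1 (trend, R 4.3.3) on log2(scaled CPM + 1), which understates the fold of low genes. Each of the 4 ages had its own mean, and the contrast was the mean of 6wk and 10wk minus that of P8 and P14; the call threshold was an adjusted p (Benjamini-Hochberg) of 0.05. The change of enrichment used 18 libraries with 8 means. Input differences were taken from that same fit, over 19828 genes, so that their spread and gene filter drew on pulldown and input libraries together. Counts of input calls are therefore not from a fit like that of the 9 pulldown libraries. The code was tested on simulated data. Symbols came from GENCODE M21 (49412 rows matched), miRNA and promoter sequences from RefSeq. Permutation tests used SciPy 1.17.1.

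Named genes were the 15 largest calls each way with a mean of at least 5 scaled CPM in the higher group, no predicted or pseudogene symbol and no overlap between groups, the called members of 30 gene lists (402 genes, 375 tested), 8 marker genes and the genes with a called change of enrichment. The comparison, its members and the lists were chosen with earlier results of these data known. Alternatives were other scalings, pseudocounts and filters, ages as replicates, a replicate block, edgeR and DESeq2 1.42.0 on the recovered reads, and leaving out each library. The P28 libraries, so labelled where the design text names P21, entered no test. A gene at 0 reads in a library may lie below its depth. Values of some single genes are not reported here.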

Additional observations from a re-analysis of the deposited data

Results flagged for a closer look

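In 250 groups of 4 or 5 libraries the highest or lowest library was compared with the gap that Dixon's 95% critical value allows, and 17 groups had a library farther off than that, 7 adult and 10 young. Chance alone gives about 1 in 20 groups. In the adult group the library apart was always 10wk IP 1, for genes lowest there at 11.0 scaled CPM (H19), 36.3 (Igf2), 29.5 (Grb10), 68.0 (Epyc), 12.1 (Bsnd) and 1.98 (Cx3cr1), and for Oc90, highest there at 0.744 where the other adult libraries were at 0. The last value rests on few reads.

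In the young group P14 IP 2 was apart, and nearer to the adult libraries, for Lncpint at 5.67 scaled CPM, Neb at 1.23, Lrrc7 at 6.08, Mroh3 at 5.48, Prph at 1.34 and Hlf, lowest there at 225. P14 IP 1 was the highest young library for Tcap at 0.987 and for Ckm at 0.110, and Gm42418 took 10.2% of its gene reads. P8 IP 1 was the highest young library for Myh4 at 0.0292, about the value of 1 read.

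Col9a1 had a change with age that differed between pulldown and input by 3.02 on the log2 scale, by the test of that difference itself, and was not called with the CPM as deposited or with the replicate block.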

How the results depend on the processing

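The count of called genes was 1162, against 173 with no filter on low values, 401 with ages as replicates, 481 with the replicate block, 899 with edgeR and 2473 with DESeq2; leaving out each library in turn gave 225 to 5357. The change of enrichment (39 calls) gave 0 with the CPM as deposited, 1 with CPM over gene reads only, 13 in a fit of all 22 libraries, 71 with no filter, 74 with edgeR, 0 with the replicate block (2707 genes at an unadjusted p below 0.05) and 2 to 2803 with a library left out. Of the list members, 97 were called, 28 with no filter, 49 with ages as replicates, and 39 to 173 with a library left out. The difference in reads outside genes was 3.23 to 9.52 percentage points with a library left out and 2.06 over all entries without a gene. The cause of these shifts was not tested.

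Genes named only for a called change of enrichment were left out of the counts that follow. Of the other 120 named genes 117 were called in the pulldown, 33 of them in every one of 20 alternatives and 44 with each library left out. Among the called genes 0 changed sign. Slc26a5, not called, had -0.13 with a pseudocount of 0.25, -0.035 without 10wk IP 1, -0.0024 without P14 IP 1, -0.77 without 6wk IP 1, -0.026 without P8 IP 2 and 1.15 without 6wk IP 2. Rpl22, not called, had 0.096 with the CPM as deposited and 0.12 over gene reads only.

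Replicate numbers did not pair pulldown libraries across ages: deviations of same-numbered ones correlated at -0.094 to 0.075. Those of same-numbered pulldown and input libraries correlated at 0.078 to 0.305; whether they share a lysate is not given in the sources used here. Each age has 2 or 3 libraries. Genes below about 1 scaled CPM rest on few reads. RNA of other cochlear cells, any difference in tamoxifen dose and age cannot be told apart in this design, and the strand setting of the counting is unknown here.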

Other observations

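The P28 pulldown libraries, which entered no test, were set beside the called genes as values. Of the 521 genes called higher in adult pulldown, both P28 libraries lay above all young libraries in 199, and of the 641 called lower both lay below all young libraries in 291. The same share over all tested genes was not computed, so these counts do not set the called genes apart from others. Tectb was at 27.6 and 30.5 scaled CPM at P28, between the adult and most of the young values. Slc4a11 was at 1228 and 1452, Snhg11 at 320.1 and 273, Snap25 at 226 and 208, Spp1 at 903 and 863 and Neat1 at 708 and 607, all above both P8 libraries. Ceacam16 was at 262 and 224, below both P14 and above both P8 libraries.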
